A study of Mus musculus with 14 samples.

Results

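The comparison set hearts of Irx3-/-;Irx5-/- mouse embryos (4 arrays) against hearts of Irx5-/- embryos (3 arrays), all at E12.5. These 7 arrays were chosen by the genotype in their sample labels, out of 14 arrays in the series. Both groups lacked both working copies of Irx5, so that the genotypes differed in Irx3 alone, which was present in Irx5-/- hearts and lost in the double mutants. The other 7 arrays held 3 hearts of the reference genotype Irx5+/- and 4 of Irx3-/-;Irx5+/-, which give the same loss of Irx3 with 1 copy of Irx5 left. The assay was a whole-transcript Affymetrix array, 1 array per sample, hybridised with cDNA amplified from 1 ng of total RNA. Values are log2 intensities, so that a difference of 1 is a 2-fold difference. Of 28763 probe sets, 21776 carried exactly 1 gene symbol, and they gave 19931 genes at 1 probe set each. The labels do not state strain, litter, sex, how the alleles were made, or whether each array was a separate embryo. The p-values therefore reflect the spread among these arrays, which may be technical.

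Irx3 and Irx5 lie next to each other and encode transcription factors with an Iroquois homeodomain. In the heart, Irx5 is known for the graded repression of the potassium channel gene Kcnd2 across the ventricular wall, and Irx3 for its role in the ventricular conduction system, where it acts on the connexin genes Gja5 and Gja1. Both are expressed in the endocardium and ventricle of the embryo, and the title of the series concerns cooperative and antagonistic roles of the pair. The comparison asks which genes differ when Irx3 is lost from a heart that already lacks Irx5.

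No gene passed the test. With limma and Benjamini-Hochberg adjustment, 0 of 19931 genes were called at an adjusted p under 0.05, which is 0% of genes. The unadjusted p was under 0.05 for 724 genes (3.63%), of which 299 (1.5%) had a higher and 425 (2.13%) a lower mean in double mutants. This 3.63% lay below the share of 0.05 that the threshold gives by chance alone. No level given below is therefore a called change, and genes are named as those with the smallest p, the largest separated differences or the subject of the study. The middle 50% of the log2 differences lay between -0.09 and 0.10, the median difference was 0.01 and the median standard error was 0.14.

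All 7 arrays carried the defining markers of heart muscle, with log2 signals of 13.34 to 13.71 for Tnnt2, the cardiac troponin T gene, and 13.56 to 13.77 for Actc1, cardiac actin. Alb (6.07 to 6.38) and Afp (6.34 to 6.65), which mark liver, varied little. Array medians lay between 7.89 and 7.97, and correlations between the 7 arrays between 0.966 and 0.986. The first principal component over the 7 arrays held 32.1% of the variance and placed arrays of 1 genotype at both ends, since Irx5-/- replicate 1 scored -31.5 and replicate 2 of the same genotype 26.4. Xist, which is transcribed from the inactive X chromosome, was high in 1 of 3 Irx5-/- arrays and in 3 of 4 double-mutant arrays, and Eif2s3y on the Y chromosome was high in the others. The groups thus differed in their sex ratio. With the Xist level as a term in the fit, the smallest adjusted p was 0.607, beside 0.160 without it. The part of sex in the differences was not tested further.

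Irx3 itself was lower in every double mutant. Its log2 signal was 8.25, 8.14 and 8.19 in the Irx5-/- hearts. In the Irx3-/-;Irx5-/- hearts it was 7.86, 7.69, 7.75 and 7.60. The groups did not overlap, and their means were 8.19 ± 0.06 (SD, n = 3) and 7.73 ± 0.11 (SD, n = 4). The difference was -0.47 ± 0.10 (SE), with a 95% interval of -0.68 to -0.26, which is a 1.38-fold lower signal. Over all genes its adjusted p in limma was 0.796, and a 2-sided exact permutation test over the 7 arrays gave p = 0.0571, the smallest that 35 splits allow. The position of the Irx3 probes relative to the deleted part of the gene is not stated in the labels or files, so the signal that remained cannot be read as a level of intact transcript. Losing Irx3 from Irx5+/- hearts gave a difference of -0.50 ± 0.10 (SE) on separate arrays.

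The other Iroquois genes did not differ beyond their error. Irx5, mutated in both groups, gave 7.86, 8.34 and 7.91 in Irx5-/- hearts and 8.20, 8.43, 7.52 and 8.04 in double mutants, a difference of 0.01 ± 0.18 (SE). Its probes too have no stated position relative to the deletion. Irx4, a ventricular factor, lay at 8.15 to 9.48 against 8.58 to 9.73, a difference of 0.32 ± 0.32 (SE). The differences of Irx1, Irx2 and Irx6 were 0.07 ± 0.13, 0.13 ± 0.12 and 0.09 ± 0.14 (SE). All of these genes overlapped between the groups, and Irx3 alone of the 6 was separated.

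**Figure D1:**
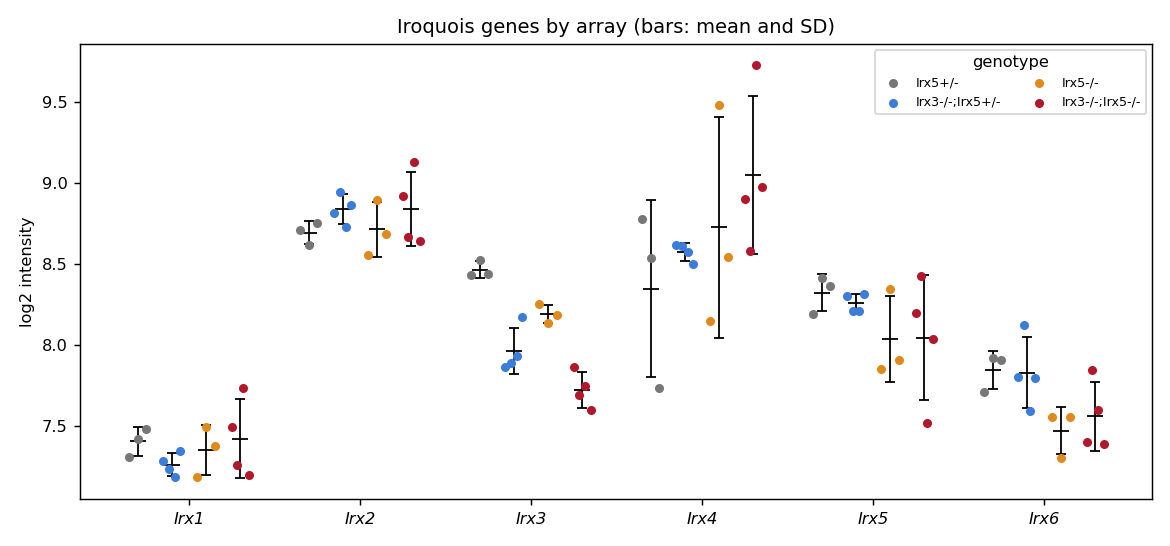
Log2 signal of the Iroquois genes in each of the 14 arrays, grouped by genotype, with the group mean and SD as bars. The 4 double-mutant values of Irx3, at 7.60 to 7.86, lie below the 3 Irx5-/- values, at 8.14 to 8.25, and the other 5 genes overlap between these groups.

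Groups that did not overlap were found for 819 genes (4.11%), with double mutants higher in 425 (2.13%) and lower in 394 (1.98%). In the exact permutation test over 35 splits the smallest p was 0.0571, which is also the share separated by labels alone. The observed 4.11% lay below that share, so that separation alone does not set a gene apart from chance. Differences over 1 in size occurred for 61 genes, and in 20 of these the groups did not overlap. Among the genes with higher means in double mutants, the smallest p belonged to Rrp15, which encodes a ribosomal RNA processing protein. It gave 8.67, 8.63 and 8.73 in Irx5-/- hearts and 9.21, 9.30, 9.31 and 9.38 in double mutants. The groups were separated by a wide gap, and the difference was 0.63 ± 0.12 (SE, adjusted p = 0.588).

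H3c15, a replication-dependent histone H3 gene, had the largest separated difference in this direction among the genes named by rule. Its signal was 5.18, 5.07 and 5.33 in Irx5-/- hearts and 7.18, 6.24, 6.03 and 6.83 in double mutants. Every double mutant was higher, by 1.38 ± 0.28 (SE, adjusted p = 0.796). The Irx5-/- values lay below those of the liver genes Alb and Afp, and may be near background. Histone H3 genes are a multigene family of near-identical copies, so the probe set may also read other members. Of the 20 genes named in the histone list, only 6 were measured, which were H1 genes and H2A variants and no H3 gene. All 6 had differences above 0, beside 52.8% of all genes, with a median of 0.17 and a range of 0.01 to 0.28.

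Tbx3 encodes the T-box repressor of working-muscle genes in the conduction system. It gave 7.95, 8.27 and 7.90 in Irx5-/- hearts and 8.76, 8.62, 8.94 and 8.36 in double mutants. The lowest double mutant lay just above the highest Irx5-/- heart, and the difference was 0.63 ± 0.14 (SE, adjusted p = 0.796). Its close relative Tbx2, a repressor of the atrioventricular canal, had a difference of 0.18 ± 0.09 (SE), and its groups overlapped.

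Ccnd1, cyclin D1 of the G1 phase, gave 10.001, 10.420 and 10.529 in Irx5-/- hearts and 10.768, 10.958, 10.923 and 10.941 in double mutants. The groups did not overlap, and the difference was 0.58 ± 0.13 (SE, adjusted p = 0.796). Ccnd2, cyclin D2, was separated in the same direction, at 11.35 to 11.71 against 11.81 to 11.99, with a difference of 0.34 ± 0.13 (SE, adjusted p = 1.00). The other genes with the smallest p in this direction were Scn3a, a sodium channel subunit, Ifi206, Scgb2a2, Ccdc25, Hjv, the BMP co-receptor hemojuvelin, and Slc6a13, a GABA transporter. Their differences ran from 0.37 for Scgb2a2 to 0.67 for Ccdc25, and none of the 6 overlapped between the groups. A choice by small p favours such separation.

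Among the genes with lower means in double mutants, Hmcn1 had the smallest p of the genes named by rule. It encodes hemicentin 1, a large extracellular matrix protein. Its signal was 12.53, 12.41 and 12.56 in Irx5-/- hearts and 12.05, 11.93, 11.79 and 12.02 in double mutants. The spread within each group was small against the gap, and the difference was -0.56 ± 0.09 (SE, adjusted p = 0.310). Only the predicted gene Gm10258 had a smaller p over all genes. Such genes were outside the naming rule, and it is named here with its values known. It gave 7.55, 7.18 and 6.93 in Irx5-/- hearts and 5.89, 5.98, 5.98 and 6.46 in double mutants, a difference of -1.14 ± 0.16 (SE, adjusted p = 0.160). Its double-mutant values also lay in or below the range of the liver genes Alb and Afp, and may be near background. Without double-mutant replicate 4 its difference was -1.27 (adjusted p = 0.0383), and 1 gene was called. With an intensity trend and robust variances in limma, Gm10258 and Hmcn1 both passed, each at an adjusted p of 0.0437.

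Fam228b gave 6.70, 6.60 and 6.72 in Irx5-/- hearts and 5.85, 5.97, 6.19 and 5.90 in double mutants, a difference of -0.70 ± 0.12 (SE, adjusted p = 0.449). Its groups were separated. Its double-mutant values lay in or below the range of the liver genes Alb and Afp, and may be near background. Lama2, the laminin α2 chain of the muscle basement membrane, gave 10.295, 9.584 and 9.650 against 8.662, 8.704, 8.877 and 9.002. All double mutants were lower, by a difference of -1.03 ± 0.21 (SE, adjusted p = 0.796). Maoa, which breaks down serotonin and catecholamines, gave 9.84, 9.04 and 9.66 against 8.26, 8.68, 8.10 and 8.84, and Irx5-/- replicate 2 lay close to the highest double mutant. Its difference was -1.04 ± 0.22 (SE, adjusted p = 0.796).

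Angpt2, the angiopoietin that opposes Tie2 signalling in remodelling vessels, had the largest separated difference among named genes. Its signal was 10.38, 8.96 and 9.87 in Irx5-/- hearts and 7.98, 8.14, 7.78 and 8.36 in double mutants. Every double mutant was lower, and the difference was -1.67 ± 0.38 (SE, adjusted p = 0.906), which is a 3.18-fold lower signal. The other lower genes with the smallest p were Cd55b, a complement decay-accelerating factor, Prkar2b, a regulatory subunit of protein kinase A, Snx13, a sorting nexin, and Triqk. Their differences lay between -0.66 for Triqk and -0.54 for Snx13, with no overlap between the groups, which the choice by small p favours.

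**Figure D2:**
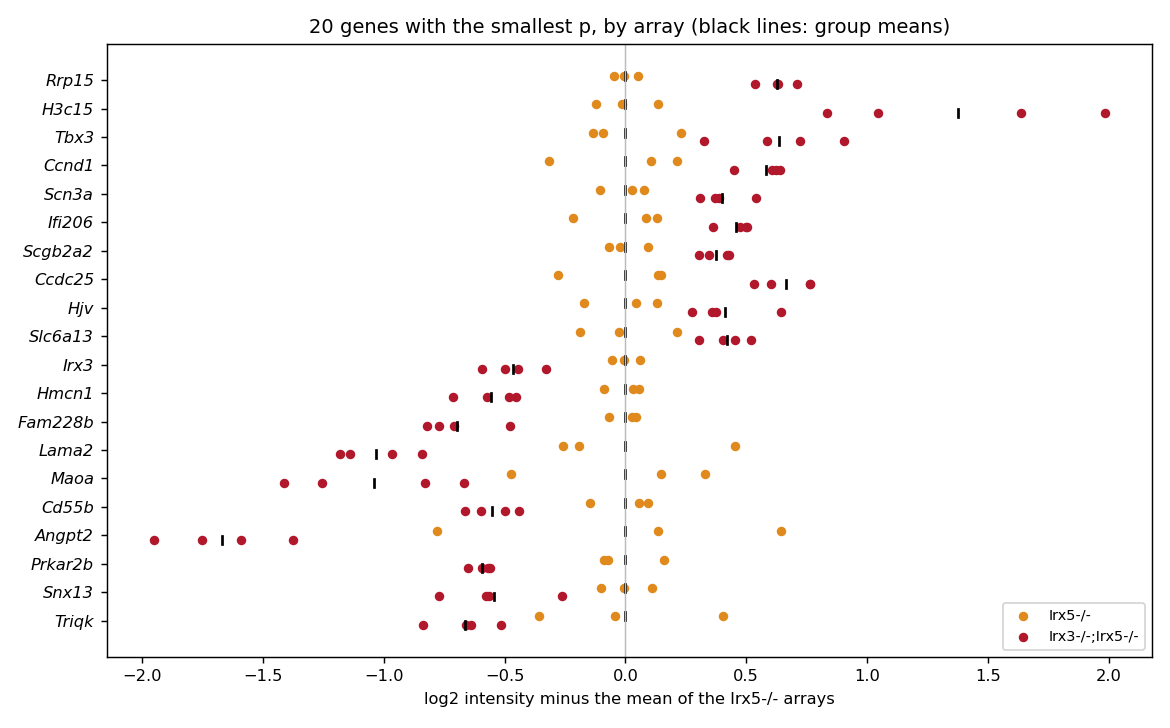
Log2 difference of each array from the mean of the Irx5-/- arrays, for the 10 genes with the smallest p in each direction under the naming rule; bars mark the group means. In all 20 genes the 4 double-mutant arrays lie on 1 side of the 3 Irx5-/- arrays, and 0 of the 20 had an adjusted p under 0.05. The genes were chosen by their small p in this same comparison, which favours separated groups, beside 4.11% separated over all genes.

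The largest separated lower differences, that of Angpt2 included, shared a high array. Gabra2, a GABA-A receptor subunit, gave 8.76, 7.34 and 6.75 in Irx5-/- hearts and 5.88 to 6.41 in double mutants. The latter values lay in or below the range of the liver genes Alb and Afp, and may be near background. Islr, the glutamate receptor gene Gria1 (9.94), Fosb (11.90) and the contactin gene Cntn6 (8.10) were also highest in Irx5-/- replicate 1. The differences of these 5 genes ran from -1.45 for Gabra2 to -1.30 for Cntn6. Without that array they were -0.88 for Gabra2, -0.97 for Islr, -0.95 for Gria1, -0.86 for Fosb and -0.79 for Cntn6. Angpt2, Lama2 and Maoa were also highest in Irx5-/- replicate 1, and without it they gave -1.35, -0.81 and -0.88. In the other direction, Sh3bgrl2 gave 7.70, 7.55 and 8.05 in Irx5-/- hearts and 9.13, 8.50, 8.19 and 8.75 in double mutants, a difference of 0.88 ± 0.24 (SE). D3Ertd751e was separated at 0.81 ± 0.49 (SE).

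The sequences upstream of 3 genes are shown because they stand for the targeted gene and for both directions of the comparison. They are the 250 bases before the RefSeq transcription start, 5′ to 3′ on the strand of the gene, in build GRCm38.p6. Capitals mark ACANNTGT, a palindromic motif of the kind that Iroquois homeodomains are known to bind, searched on both strands, which are the same search for a palindrome. The Irx3 window was chr8:91801655-91801904 on the minus strand.
Irx3: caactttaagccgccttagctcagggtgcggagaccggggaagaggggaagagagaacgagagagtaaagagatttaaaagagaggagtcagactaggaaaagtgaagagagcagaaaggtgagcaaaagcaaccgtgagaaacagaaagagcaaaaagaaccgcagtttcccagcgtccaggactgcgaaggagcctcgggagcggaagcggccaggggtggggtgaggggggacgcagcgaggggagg
The Rrp15 window was chr1:186749359-186749608 on the minus strand.
Rrp15: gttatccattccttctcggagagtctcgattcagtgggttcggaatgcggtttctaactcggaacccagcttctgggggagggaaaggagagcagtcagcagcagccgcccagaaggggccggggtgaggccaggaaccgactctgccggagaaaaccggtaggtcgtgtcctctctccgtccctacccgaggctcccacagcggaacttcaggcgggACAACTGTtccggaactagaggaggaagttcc
The Hmcn1 window was chr1:150993436-150993685 on the minus strand.
Hmcn1: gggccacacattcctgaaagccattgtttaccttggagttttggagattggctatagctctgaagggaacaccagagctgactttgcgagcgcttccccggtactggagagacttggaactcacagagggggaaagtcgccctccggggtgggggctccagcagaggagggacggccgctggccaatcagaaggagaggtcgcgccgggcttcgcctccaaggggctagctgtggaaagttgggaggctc
The motif stood once in the Rrp15 window, with its first base 32 bases before the start, and these letters were not in the Irx3 or Hmcn1 windows. Of the 20 genes with the smallest p, 13 were matched in the promoter table, with 16 windows. The motif was in 1 of these 16 windows, and in 6.31% of all 32851 windows of the same length. A match of letters is a description of the window and not a binding site.

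Extracellular matrix genes lay lower on balance. Their list, like the other lists, was chosen with earlier results of these data known, and is described without a test. Of 33 measured matrix genes, 25 had differences below 0 and 8 above, with a median of -0.14 beside 0.01 over all genes, of which 52.8% lay above 0. The unadjusted p was under 0.05 for 5, all lower, beside 2.13% of all genes in that direction, and 3 were separated, all lower, beside 1.98% of all genes. Beside Hmcn1 and Lama2, these 5 held Eln, the elastin gene, at -1.12 ± 0.42 (SE), and Col6a3, a collagen VI chain, at -1.01 ± 0.45 (SE). Adamts1, a matrix protease of the trabecular list, gave -0.67 ± 0.25 (SE). Eln, Col6a3 and Adamts1 overlapped between the groups. The mean of the list relative to all 14 arrays was 0.31, -0.31 and 0.18 in the Irx5-/- arrays and -0.27, -0.15, -0.23 and -0.06 in the double mutants, so that Irx5-/- replicate 2 lay with the double mutants. Without Irx5-/- replicate 1 the median was -0.03, and without replicate 2 it was -0.27.

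Angiogenic signalling genes had their smallest p values on the lower side, although the median of the 29 measured was 0.04. Of these, 5 had an unadjusted p under 0.05 and all were lower, beside 2.13% of all genes in that direction. They included Angpt2, Nrp1, the semaphorin and VEGF co-receptor neuropilin 1 (-0.32 ± 0.13, SE), Aplnr, the apelin receptor (-0.64 ± 0.28, SE), and Ackr3, a CXCL12 scavenger receptor (-0.39 ± 0.17, SE). Nrp1 lay at 11.04 to 11.10 in Irx5-/- hearts and at 10.49 to 10.95 in double mutants, with no overlap. Aplnr was separated by a narrow gap, from 8.82 to 9.23 against 7.84 to 8.80, and Ackr3 overlapped. With the endothelial mean as a term, the differences were -1.69 for Angpt2, -0.31 for Nrp1, -0.62 for Aplnr and -0.39 for Ackr3. Relative to the mean of all arrays, the endothelial list mean was -0.26 in double mutants and -0.24 in Irx5-/- hearts. A term so nearly equal between the groups could hardly move these differences, so the part of endothelial content in them was not tested by this fit.

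Endothelial and endocardial markers did not lie to 1 side. Of 35 measured, 17 had differences above 0 and 18 below, with a median of -0.00. Cd34, a surface marker of endothelial and progenitor cells, gave 11.36, 10.54 and 11.79 against 10.38, 10.98, 10.35 and 10.49, a difference of -0.68 ± 0.23 (SE). It overlapped because of Irx5-/- replicate 2 and double-mutant replicate 2. The caveolin gene Cav1 gave -0.53 ± 0.19 (SE), and 5 of 9 caveolar genes were below 0. In whole-heart RNA, fewer cells of a type and less RNA per cell cannot be told apart.

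Of the BMP ligand genes, Bmp10 and Bmp2 were separated between the groups. Bmp10, the trabecular BMP ligand, gave 5.82, 6.38 and 5.94 in Irx5-/- hearts and 6.74, 6.95, 7.74 and 7.10 in double mutants. All double mutants were higher, by 1.08 ± 0.29 (SE, adjusted p = 1.00), a 2.12-fold higher signal. The Irx5-/- values lay in or below the range of the liver genes Alb (6.07 to 6.38) and Afp (6.34 to 6.65). They may be near background, so that the fold need not be the ratio of transcript levels. Bmp2, the ligand of the atrioventricular canal myocardium, gave 8.08, 8.16 and 7.71 against 8.21, 9.58, 8.98 and 8.35, a difference of 0.79 ± 0.35 (SE). The nearest arrays of the groups, at 8.16 and 8.21, almost met. Msx2, a homeobox target of BMP signalling, lay at 7.55 to 7.81 against 7.93 to 8.29, with a difference of 0.44 ± 0.12 (SE). The ligand genes Bmp4 (0.11 ± 0.43, SE), Bmp5 (0.20 ± 0.42, SE), Bmp6 (-0.02 ± 0.13, SE) and Bmp7 (0.15 ± 0.40, SE) were within their error. On the TGF-beta side, the ligand Tgfb2 (-0.37 ± 0.16, SE) and the receptor Tgfbr2 (-0.44 ± 0.20, SE) lay lower with overlapping groups. Of the 36 genes of both pathways, 14 were above 0 and 22 below, with a median of -0.06.

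Conduction and channel genes of the study's subject overlapped between the groups, apart from Tbx3, Bmp10 and Hcn4. Gja5, the connexin of the fast conduction system, gave 9.99, 10.97 and 10.09 in Irx5-/- hearts and 10.23, 10.84, 11.14 and 10.44 in double mutants, a difference of 0.31 ± 0.47 (SE). Kcnd2, which encodes the Kv4.2 channel of the transient outward current, differed by 0.03 ± 0.19 (SE), and the subunit gene Kcnip2 by -0.21 ± 0.13 (SE). Hcn4, the pacemaker channel gene, gave 8.85, 8.76 and 8.84 against 8.64, 8.45, 8.63 and 8.70. Its groups were separated by a small difference of -0.22 ± 0.09 (SE, adjusted p = 1.00). Nppa, the atrial natriuretic peptide gene of chamber muscle, ran from 8.86 to 11.37 in Irx5-/- hearts and from 9.76 to 11.86 in double mutants. Its difference of 0.79 ± 0.80 (SE) was within its error, as were those of Nppb (-0.11 ± 0.57, SE) and of the T-box gene Tbx5 (0.01 ± 0.22, SE). The calcium channel subunit gene Cacna2d2 had the smallest p of the 26 measured ion channel genes, at 0.89 ± 0.27 (SE), and its groups overlapped at their nearest arrays (8.64 and 8.63). Of the 22 conduction and gap junction genes, 16 were above 0, with a median of 0.10.

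Sarcomere genes lay mostly above 0, but the arrays did not separate. Of 31 measured, 29 had differences above 0 and 2 below, with a median of 0.29, and 0 had an unadjusted p under 0.05. Myl7, the atrial light chain, had the largest difference of the list at 0.61 ± 0.33 (SE), from 11.46, 12.64 and 11.84 against 12.48, 12.79, 12.46 and 12.62. The list mean relative to all 14 arrays was -0.22, 0.86 and -0.32 in the Irx5-/- arrays, and 0.15, 0.27, 0.66 and 0.46 in the double mutants. Irx5-/- replicate 2 therefore lay above all double mutants and the other Irx5-/- arrays below them. The median was 0.74 without that array, 0.13 without Irx5-/- replicate 1 and 0.07 without replicate 3.

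Energy genes were spread over the arrays in a like way. Glycolysis and hypoxia genes had 23 of 26 above 0, with a median of 0.24, and oxidative phosphorylation genes 27 of 28, with a median of 0.13. In neither list was an unadjusted p under 0.05 found. Irx5-/- replicate 2 had the highest list mean of the 7 arrays in both, at 0.79 and 0.65. Without that array the medians were 0.56 and 0.38. Without Irx5-/- replicate 1 they were 0.06 and 0.0065, and without replicate 3 they were 0.05 and 0.04. With the sarcomere mean as a term, they were 0.04 for glycolysis and hypoxia and 0.00 for oxidative phosphorylation. The sarcomere mean rose and fell with the means of both lists from array to array. A fit with this term could hardly leave the medians unchanged, so the part of muscle content was not tested by it. Fatty acid genes did not lie to 1 side, with 11 of 23 above 0. Among them Cpt1a, the carnitine transferase that admits fatty acids to mitochondria, gave 9.19, 9.20 and 9.05 against 8.63, 8.84, 8.67 and 8.77. It was lower in all double mutants, at -0.42 ± 0.12 (SE, adjusted p = 1.00), and Ppara, a nuclear receptor for fatty acid genes, gave -0.39 ± 0.18 (SE) with overlap.

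Genes of the myocardial layers were mixed. Compact layer genes had 12 of 16 above 0 and a median of 0.10, with Ccnd1 and Ccnd2 among 3 with an unadjusted p under 0.05, all higher, beside 1.5% of all genes in that direction. The median was 0.25 without Irx5-/- replicate 2 and 0.0074 without replicate 3. Trabecular genes had 9 of 18 above 0 and a median of -0.04. Cited1, a transcriptional co-regulator found in trabeculae, had the largest difference of them at 1.18 ± 0.55 (SE). It overlapped, with 9.65, 10.31 and 8.52 against 9.96, 10.92, 11.34 and 10.47. The atrial factor gene Nr2f1 gave 0.52 ± 0.17 (SE), and its lowest double mutant lay below the highest Irx5-/- heart. Dsg2, the desmosomal cadherin desmoglein 2, lay lower in all double mutants, at 9.17 to 9.39 against 9.42 to 9.80, a difference of -0.30 ± 0.12 (SE).

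Cell cycle lists differed in how far they lay above 0. Of 27 measured G2 and mitosis genes, 25 were above 0, beside 52.8% of all genes, with a median of 0.15. The groups were separated for 3 of them, all higher, beside 2.13% of all genes. Tacc3, a spindle protein, lay at 10.29 to 10.44 against 10.60 to 10.86, a difference of 0.34 ± 0.11 (SE, adjusted p = 1.00). Ccnb2, cyclin B2, gave 0.36 ± 0.16 (SE) with overlapping groups. Genes of G1 control and p53 targets, with 15 above 0 and 11 below, had a median of 0.05, and their share above 0 was near that of all genes. The groups were separated for 3 of these 26 genes too, all higher. Replication genes had 20 of 28 above 0, with a median of 0.10, which ran from 0.03 to 0.12 as single arrays were left out. Mcm8, a helicase of homologous recombination, gave 8.53, 8.24 and 8.34 against 8.54, 8.73, 8.92 and 9.28, a difference of 0.50 ± 0.17 (SE), and the nearest arrays of the groups almost coincided. The median of the G2 and mitosis list ran from 0.12 to 0.23 as single arrays were left out.

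**Figure D3:**
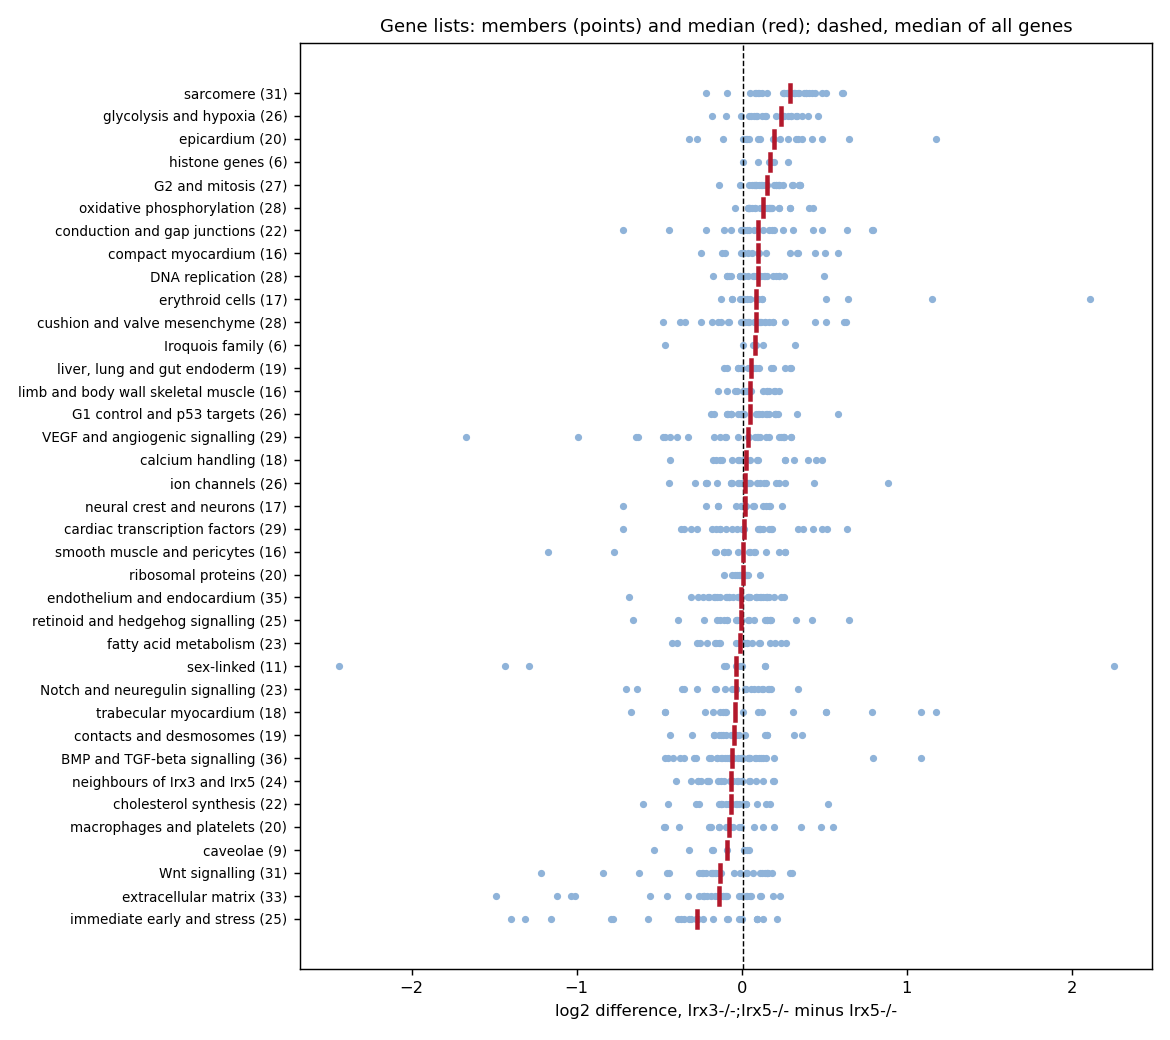
Log2 difference (double mutant minus Irx5-/-) of the members of each gene list as points, with the list median in red, the number of measured genes in parentheses and the median of all genes dashed. Sarcomere genes have the highest median, at 0.29, immediate early and stress genes the lowest, at -0.27, and all genes tested lie at 0.01.

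Immediate early and stress genes lay below 0, with 19 of 25 lower, 6 higher and a median of -0.27. The unadjusted p was under 0.05 for 4, all lower, beside 2.13% of all genes in that direction. These genes, such as Fosb, Egr1, Egr2 and Btg2, are transcribed within minutes of a stimulus, tissue handling included. Egr1 gave 11.16, 10.60 and 9.78 in Irx5-/- hearts and 9.40, 8.51, 9.88 and 9.66 in double mutants, a difference of -1.15 ± 0.33 (SE). The values overlapped through Irx5-/- replicate 3. Egr2 differed by -1.40 ± 0.49 (SE) and Btg2 by -0.78 ± 0.33 (SE). The list mean relative to all 14 arrays was 0.59 in Irx5-/- replicate 1, 0.26 in replicate 2 and -0.29 in replicate 3, and ran from -0.39 to 0.00 in the double mutants. The median was -0.06 without Irx5-/- replicate 1 and -0.51 without replicate 3. With the list mean as a term in the fit, chosen after the values were seen, the differences of Lama2 and Gabra2 were -0.77 and -0.87. The part of handling in these differences was not tested.

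**Figure D4:**
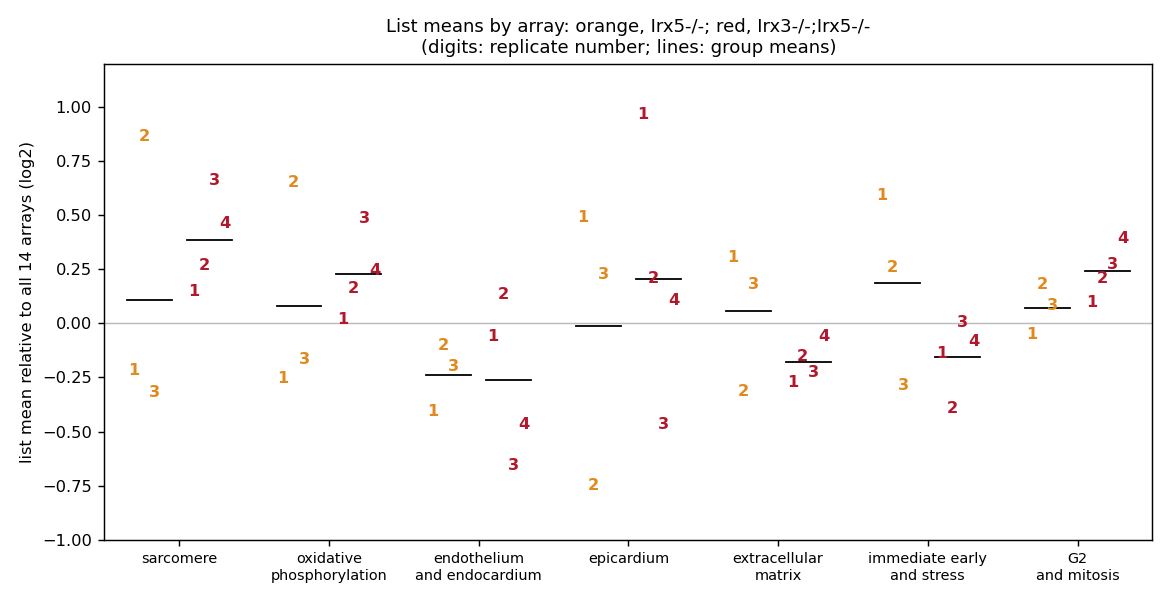
Mean log2 level of selected gene lists in each array, relative to the mean of all 14 arrays, with digits for the replicate number and lines for group means. Irx5-/- replicate 2 is highest for sarcomere genes (0.86) and lowest for epicardial genes (-0.75), and Irx5-/- replicate 1 is highest for immediate early genes (0.59).

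In the other signalling lists the smallest p values fell in both directions. Of 31 Wnt genes, 12 were above 0 and 19 below, with a median of -0.13. The secreted Wnt modulators Dkk3 (-0.84 ± 0.25, SE) and Sfrp2 (-1.21 ± 0.46, SE) lay lower with overlap, and the ligand gene Wnt2 (0.29 ± 0.13, SE) lay higher with overlap. Notch2, a receptor, gave -0.70 ± 0.30 (SE) and Nrarp, a target of Notch, -0.36 ± 0.16 (SE), in a list with 11 of 23 above 0. Stra6, the membrane receptor for retinol-binding protein, lay at 8.02 to 8.31 against 8.35 to 8.60, a separated difference of 0.33 ± 0.12 (SE). Ptch1, the hedgehog receptor, gave -0.39 ± 0.17 (SE), and the 25 retinoid and hedgehog genes had a median of -0.01.

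Epicardial markers had 17 of 20 above 0 and a median of 0.19, with no gene separated. Tcf21, a factor of epicardial and fibroblast precursors, gave 9.63, 7.39 and 9.44 against 10.91, 10.15, 8.79 and 10.13, a difference of 1.18 ± 0.54 (SE). Without Irx5-/- replicate 2 it was 0.46. The list mean was lowest in Irx5-/- replicate 2 (-0.75) and highest in double-mutant replicate 1 (0.97), and the median was -0.07 without the former and -0.01 without the latter. The embryonic globin genes differed widely between arrays of 1 genotype. Hbb-y gave 8.99, 6.79 and 6.88 against 8.62, 11.84, 10.58 and 7.60, and Hba-x 7.47, 7.41 and 7.32 against 7.82, 10.51, 8.38 and 7.51. Their differences of 2.11 ± 1.09 and 1.15 ± 0.63 (SE) rested most on double-mutant replicate 2, which leaves 1.38 for Hbb-y and 0.50 for Hba-x when left out. Macrophage and platelet genes had 14 of 20 below 0 and a median of -0.08, and 0.04 without Irx5-/- replicate 2. The complement gene C1qb was at -0.47 ± 0.20 (SE). The part of cell composition in the differences above was not tested.

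Of 24 measured genes that neighbour Irx3 and Irx5 on chromosome 8, 7 were above 0 and 17 below, with a median of -0.06. It ran from -0.14 without double-mutant replicate 3 to -0.0035 without double-mutant replicate 1. The groups were separated for 0 of these genes, which is near the 4.11% of all genes. Bbs2, a ciliary trafficking gene, gave -0.26 ± 0.11 (SE), and Gnao1, a G-protein subunit, -0.31 ± 0.14 (SE), both with overlapping groups.

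The same loss of Irx3 could be set beside that in Irx5+/- hearts, on arrays that the comparison did not share. The interaction, the difference in Irx5-/- hearts minus that in Irx5+/- hearts, was called for 0 genes in limma, with 806 (4.04%) at an unadjusted p under 0.05. Loss of Irx3 in Irx5+/- hearts called 0 genes, with 1010 (5.07%) at an unadjusted p under 0.05. Of the 20 genes with the smallest p, 14 (70%) had the same sign in both backgrounds, beside 52.1% of all genes and 49.7% of the 819 separated genes. These 14 were 6 of the 10 higher and 8 of the 10 lower genes. Irx3 itself is among those 8, and its loss was set by genotype in both backgrounds. Irx3 had nearly equal differences, -0.47 and -0.50. Bmp10 was 1.08 ± 0.29 (SE) and 0.87 ± 0.29 (SE). It is a gene of the study's subject, and was also among the largest separated higher differences in Irx5-/- hearts. Of the other genes described above, values closer to 0 in Irx5+/- hearts were those of Angpt2 at -0.38 ± 0.38 (SE), Lama2 at -0.22 ± 0.21 (SE), H3c15 at 0.28 ± 0.28 (SE), Tbx3 at 0.09 ± 0.14 (SE) and Ccnd1 at 0.16 ± 0.13 (SE). These genes were picked by their small p in Irx5-/- hearts, and such a choice by itself favours smaller values on other arrays. The interaction had an adjusted p of 1.00 for each of these genes, so that a difference between the backgrounds was not shown for any of them. Irx3-/-;Irx5+/- replicate 4 carries a description that names Irx5-/-, and without it 0 genes were called in the comparison of Irx5-/- hearts and 0 in the interaction.

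**Figure D5:**
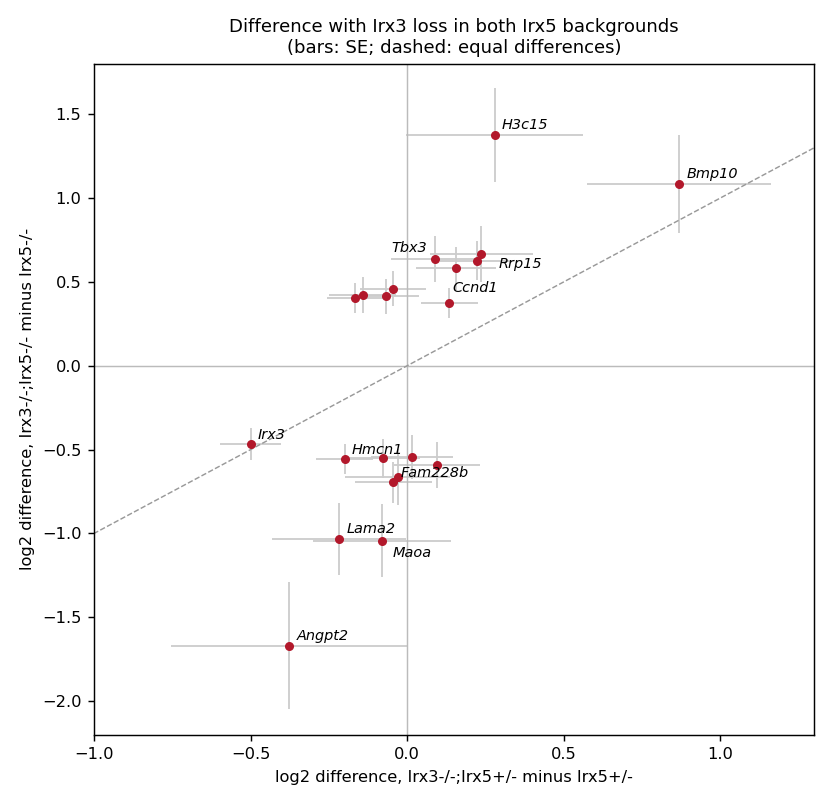
Log2 difference with Irx3 loss in Irx5-/- hearts (vertical axis) against that in Irx5+/- hearts (horizontal axis), with standard errors as bars and a dashed line of equal differences. Irx3 (-0.47 and -0.50) and Bmp10 (1.08 and 0.87) lie near the line, and Angpt2, Lama2, Maoa and H3c15 lie nearer 0 on the horizontal axis. The genes other than Bmp10 were picked by their p in the comparison on the vertical axis. Bmp10, a gene of the study's subject, was also among the largest separated higher differences on that axis.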

How the data were processed

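Per the file headers, the authors made the deposited log2 values with RMA (background correction, quantile normalization and summary per probe set) in the R package affy, over all arrays together, then removed every probe set whose mean was at or below 3 in each group, and fitted limma. The value table held 0 such probe sets. The sources used here give no versions for these steps, and no scan dates or batches. Values were used without further scaling, and intensities have no depth, so that the number of arrays limits the precision.

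Probe sets were named through the platform's table: 21776 had 1 symbol, 1592 several and 5395 none, and 21685 were matched by gene ID to RefSeq (GRCm38.p6), the source also of the sequences. For 998 genes with several probe sets, the one with the highest mean over 14 arrays was kept. The test was limma (3.58.1, under R 4.3.3), fitted as 1 mean for every genotype over all 14 arrays (10 residual and 3.50 prior degrees of freedom), 2-sided, Benjamini-Hochberg adjusted over 19931 genes and called under 0.05. Group errors are SDs and errors of differences are SEs of this fit. Separated or not overlapping means that every array of 1 group lay above every array of the other. The procedure was tested on simulated data.

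The comparison and the 37 gene lists were chosen with earlier results of these data known. Lists are described by counts and medians, with no test, and 74 of their 899 entries had no probe set of 1 symbol. The rule named Irx1 to Irx6, 10 genes per direction with the smallest p, 6 per direction with the largest separated difference, up to 4 members per list with the smallest p, and the study's subject genes. It passes over predicted genes, receptors of smell and taste, and small RNAs. The rule limited the text to 30 genes. The text names 81, the further ones being list members that the rule allowed and the predicted gene Gm10258, which it did not, with values known when they were kept. Bmp4 to Bmp7 were added likewise, and tissue and sex markers are named as checks.

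Alternatives were 19 planned settings and 1 added after the data were seen. They were the 7 arrays alone, all probe sets, a filter on dim probe sets, centring or quantile normalization, trend and robust variances, array weights, a replicate block, Xist, sarcomere, endothelial or immediate early means as terms, and the 7 arrays of the comparison left out in turn, with Irx3-/-;Irx5+/- replicate 4 left out in a further fit. The other 6 arrays were not left out.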

Additional observations from a re-analysis of the deposited data

Results flagged for a closer look

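Of 117 gene and list values checked in the 4 double-mutant arrays, 3 had 1 array far from the rest, by a criterion that flags about 1 group in 20 by chance. The predicted gene Gm10258 was at 6.46 in replicate 4, and at 5.89 to 5.98 in the other arrays. The mean of the cardiac transcription factor genes relative to all 14 arrays was -0.038 in replicate 1 and 0.10 to 0.12 in the others. The mean of the smooth muscle and pericyte genes was -0.33 in replicate 1 and 0.07 to 0.12 in the others.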

How the results depend on the processing

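The count of called genes was 0 in all settings but 2 of 20. Trend and robust variances called 2 genes, and leaving out single arrays called 0 to 1, the 1 without double-mutant replicate 4. The interaction was 0 wherever it was fitted, and the 7 arrays alone give none. Unadjusted p under 0.05 was found for 502 genes without Irx5-/- replicate 1 and for 1390 without replicate 2, beside 724. Irx3 ran from -0.51 to -0.42. Of 1614 values of the 81 named genes, 1589 kept their direction, as 74 genes did throughout. The other 25 values had the opposite sign. With the replicate block they were Kcnd2 -0.059, Nppb 0.0054 and Tbx5 -0.020. Other terms gave Nppb 0.25 (array weights), Irx5 -0.10 and Kcnd2 -0.020 (Xist), Gja5 -0.022 and Kcnd2 -0.038 (sarcomere), and Irx5 -0.12 and Nppb 0.43 (immediate early). With single arrays left out, Irx1 ran from -0.033 to 0.15, Irx5 from -0.12 to 0.18, Irx6 from -0.0071 to 0.15, Kcnd2 from -0.14 to 0.23, Nppb from -0.80 to 0.69 and Tbx5 from -0.31 to 0.21. The cause was not tested. The replicate block called 0 genes, with 672 at an unadjusted p under 0.05. Deviations of arrays with the same number correlated at 0.03, -0.11 and -0.06, which gave no sign that the numbers pair the samples. Shared litters or batches, which the labels do not state, were not tested.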

Other observations

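Other groups of genes lay close to the values over all genes. Ribosomal protein genes, which differ little between hearts, had 14 of 20 above 0 and a median of 0.01. Cholesterol synthesis genes had 15 of 22 below 0 and a median of -0.06, and cushion and valve mesenchyme genes 18 of 28 above 0 and a median of 0.08. Markers of neural crest and neurons (median 0.02, 17 genes), of liver, lung and gut endoderm (0.06, 19 genes) and of skeletal muscle (0.05, 16 genes) had 0 members with an unadjusted p under 0.05. Calcium handling genes had a median of 0.03, and 0.42 without Irx5-/- replicate 2, in which their list mean was 0.73 relative to all 14 arrays, above 0.00 to 0.34 in the double mutants.

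By chromosome, 10 of the 100 genes with the smallest p were on chromosome 1, which holds 5.62% of the genes tested, and 3 were on chromosome 8 with Irx3, which holds 4.79%. These counts are a description and were not tested.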
